A study of Rattus norvegicus with 2 samples.

Results

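Of the 11599 circular RNAs (circRNAs) listed in rat spinal cord, 107 carried no name of a host gene. A circRNA is a closed ring of RNA, formed when the spliceosome links the end of an exon to the beginning of the same or an earlier exon. Each was known here by its chromosome, start and end (build rn6) and by the reads that crossed the back-splice junction. The 107 were chosen by the name field of the table alone, without its counts. In 16 of them the field read "n/a", taken here as empty. In the other 91 it held only family names of small nucleolar RNAs (SNORA and SNORD) or of U RNAs. A further 1191 circRNAs also had no gene name but carried at least 1 small RNA name outside that rule, such as 7SK or 5S_rRNA. They were kept apart, and 10301 circRNAs had a gene name.

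The table compared 2 libraries, 1 per group. In the bone cancer pain (BCP) group, SD rats received live Walker256 cells, a rat mammary carcinoma line, into the tibial marrow. The sham group received boiled cells by the same operation. Spinal cord was taken 21 days after surgery from 3 animals described per group, and the sources used here do not say whether their RNA was pooled. In both groups ribosomal RNA was removed and linear RNA was digested with RNase R. With 1 library per group no difference has a replicate check. What follows therefore compares a pair of libraries, and says nothing of how the conditions differ. The sham library held 113033 back-splice reads and the BCP library 78836, and the smallest count above 0 was 2 in each. Values are given as reads and as CPM, which are reads scaled to a total of 1000000 circRNA reads per library. All intervals are 95% exact binomial (Clopper-Pearson) intervals. Those of ratios and of shares of reads cover counting error only, and without molecular identifiers several reads may stem from 1 molecule. Those of shares of circRNAs treat each circRNA as an independent draw, which overlapping circRNAs are not.

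All 7 neuronal marker genes of a list hosted circRNAs (1210 sham and 714 BCP reads). Of 5 glial genes 3 did (10 circRNAs, 13 and 48 reads), and of 3 microglial genes 2 did (2 circRNAs, 11 and 55 reads). None of 5 Hox genes of spinal position, 4 skeletal muscle genes or 3 carcinoma genes did. The lists were drawn up with earlier results of these data known, so these counts do not check the tissue label. Reads under the glial and microglial genes were higher in BCP. The microglial reads came from only 2 circRNAs, named Dock8 and Ikzf1, while Csf1r, the other gene of that list, hosted none. The part of cell makeup in the values below was not tested, and fewer cells of a type cannot be told apart from less RNA per cell.

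Most known circRNAs are made from exons of protein-coding genes, by the same splicing machinery that makes linear mRNA. Small nucleolar RNAs guide chemical modification of ribosomal RNA, and many of them are cut out of introns. The U RNAs named here are mostly parts of the spliceosome, apart from U7, which acts in histone mRNA processing. Genomes hold many scattered copies and pseudogenes of these families. No sequence of these circRNAs is printed, because no genome of build rn6 was used here.

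The small RNA names recurred over long stretches of chromosomes. The 91 circRNAs with such names carried 18 families in 30 combinations, with a median of 3 names each and at most 8. U6, the spliceosomal RNA of the catalytic core, was on 76 of them, and it was followed by SNORA17 (44), a small nucleolar RNA, and by the spliceosomal RNAs U2 (25), U1 (21) and U4 (14). Over the whole table U6 was on 2419 circRNAs of 21 chromosomes and SNORA17 on 2235. For each of 309 pairs of family and chromosome with at least 3 carriers, the stretch from the first to the last carrier was taken. Its median length was 74.9 Mb. Among circRNAs with only small RNA names that lay inside such a stretch, the ones that set its limits left out, the family name was present in 12147 of 12161 cases (99.9%). The other 14 cases came from only 2 circRNAs of chromosome 15 that carried RNaseP_nuc alone. Among the 1197 circRNAs with both gene and small RNA names it was present in 12291 of 12291 cases. A further 9104 circRNAs carried gene names alone and were left out of both counts, wherever they lay.

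On chromosome 10, for instance, circRNAs that started at 106673704 and at 110101466 carried the same set of U6, SNORA48, U2 and SNORA26. All 16 circRNAs with an empty field lay outside the stretch of every small RNA name on their chromosome. Of the 91 with names in the rule, 2, both on chromosome 3, lay inside the stretch covered by the small RNA names outside the rule.

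The circRNAs without a named host accordingly lay near the outer ends of the listed part of each chromosome, a property that the rule did not use directly but that the names follow. The median distance to the outermost circRNA listed on the chromosome was 2.18 Mb, and 30.2 Mb for circRNAs with a gene name. Within 5 Mb of it lay 75 of 107 (70.1%, interval 60.5 to 78.6), against 9.93% (9.36 to 10.5) of circRNAs with a gene name. The 1191 kept apart had 4.53% (3.42 to 5.87) there. Several of the 107 were themselves outermost and so counted at a distance of 0 Mb, among them the only circRNA of the unplaced scaffold. Between the first and last listed circRNA of a chromosome, 58 lay in the first 14.6% of the length and 48 in the last part, beyond 92.3%. These limits were set by the innermost of these circRNAs, so the stretch between held none of them by construction. It held 7851 circRNAs with a gene name (76.2% of that class). The 107 came from 19 of 21 chromosomes, with 13 each on chromosomes 3 and 9 and 12 on chromosome 15, and 1 from an unplaced scaffold. Chromosomes 2 and 20 had none.

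**Figure D1:**
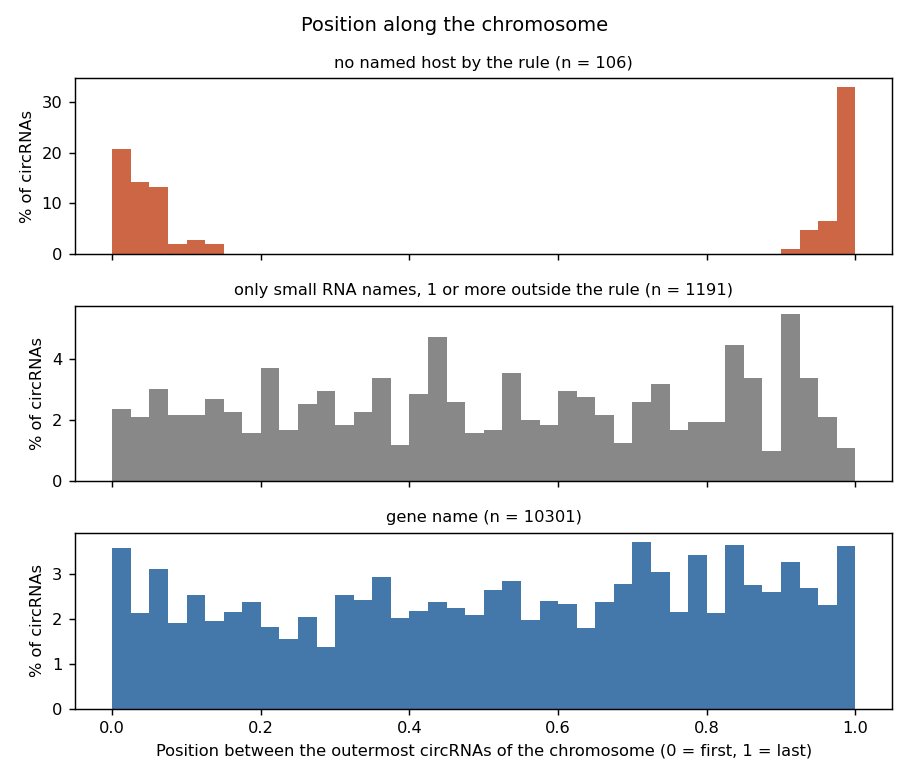
Position of each circRNA between the first (0) and last (1) circRNA listed on its chromosome, as the percentage of circRNAs per bin, for 3 classes of name, with the unplaced scaffold left out. The circRNAs without a named host sit in the first 14.6% or beyond 92.3%, while the other classes spread over the whole length.

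In span they overlapped widely with the rest. The genomic distance from start to end had a median of 11417 bp (quartiles 2536 and 29394 bp), from 144 to 187823 bp. For circRNAs with a gene name the median was 9409 bp (2908 and 23718 bp), and for the 1191 kept apart 13379 bp. Spans of at most 500 bp were found in 7 of 107 (6.54%, 2.67 to 13.0) and in 6.17% (5.72 to 6.66) of circRNAs with a gene name. Spans of at least 100 kb were also found in 7 (6.54%, 2.67 to 13.0), against 2.47% (2.18 to 2.78) with a gene name and 7.39% (5.97 to 9.02) of the 1191 kept apart. The 16 with an empty field ran from 631 to 54757 bp. Their 0 of 16 at 500 bp or less allows a share of up to 20.6%.

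**Figure D2:**
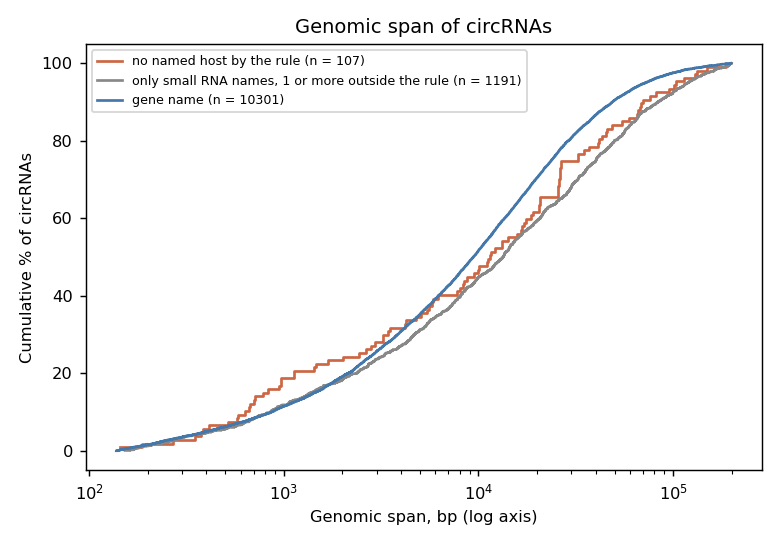
Cumulative percentage of circRNAs by genomic span in bp on a log axis, for the 3 classes of name. The curve of the 107 without a named host runs close to that of circRNAs with a gene name up to their medians (11417 and 9409 bp) and lies below it in most of the range above.

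Their share of all reads was small and close to equal in the libraries. They held 781 reads in sham (0.691%, 0.643 to 0.741) and 571 in BCP (0.724%, 0.666 to 0.786). The ratio of summed CPM, BCP over sham, was 1.05 (0.939 to 1.17). Under median-of-ratios scaling it was 0.975 (0.874 to 1.09), and under TMM scaling 0.967 (0.866 to 1.08), so no direction held. The 1191 kept apart had a ratio of 0.954 (0.927 to 0.982), and circRNAs with a gene name 1.00 (0.995 to 1.01). The median was 4 reads over both libraries, against 5 for circRNAs with a gene name. At most 5 reads were found for 60 of the 107, and at least 100 for 2. The 5 most abundant took 37.0% of the reads of all 107 (34.4 to 39.6).

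The most abundant was a 415 bp circRNA of chromosome 10 (110101466 to 110101880), with 75 reads in sham (664 CPM) and 90 in BCP (1142 CPM). Its ratio was 1.72 (1.25 to 2.37), higher in BCP beyond counting error but under 2-fold. The nearest circRNAs with a gene name were 11.1 kb before it, named Ccdc57, and 393 kb after it, named Foxk2, a forkhead transcription factor gene. Next came a circRNA of chromosome 13 (113735261 to 113748416) with 85 and 57 reads, or 752 and 723 CPM, a ratio of 0.961 (0.675 to 1.36). It carried SNORA17 alone and lay between circRNAs of the semaphorin receptor gene Plxna2, 332 kb before, and Cr1l, 84.0 kb after. Another, on chromosome 10 (107845994 to 107850764), had 57 and 28 reads, 504 and 355 CPM, a ratio of 0.704 (0.431 to 1.13). Its neighbours were circRNAs of Rbfox3, which encodes a splicing regulator of neurons, 306 kb before, and Tbc1d16, 411 kb after. Of these 3 ratios only the first had an interval that excluded 1.

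**Figure D3:**
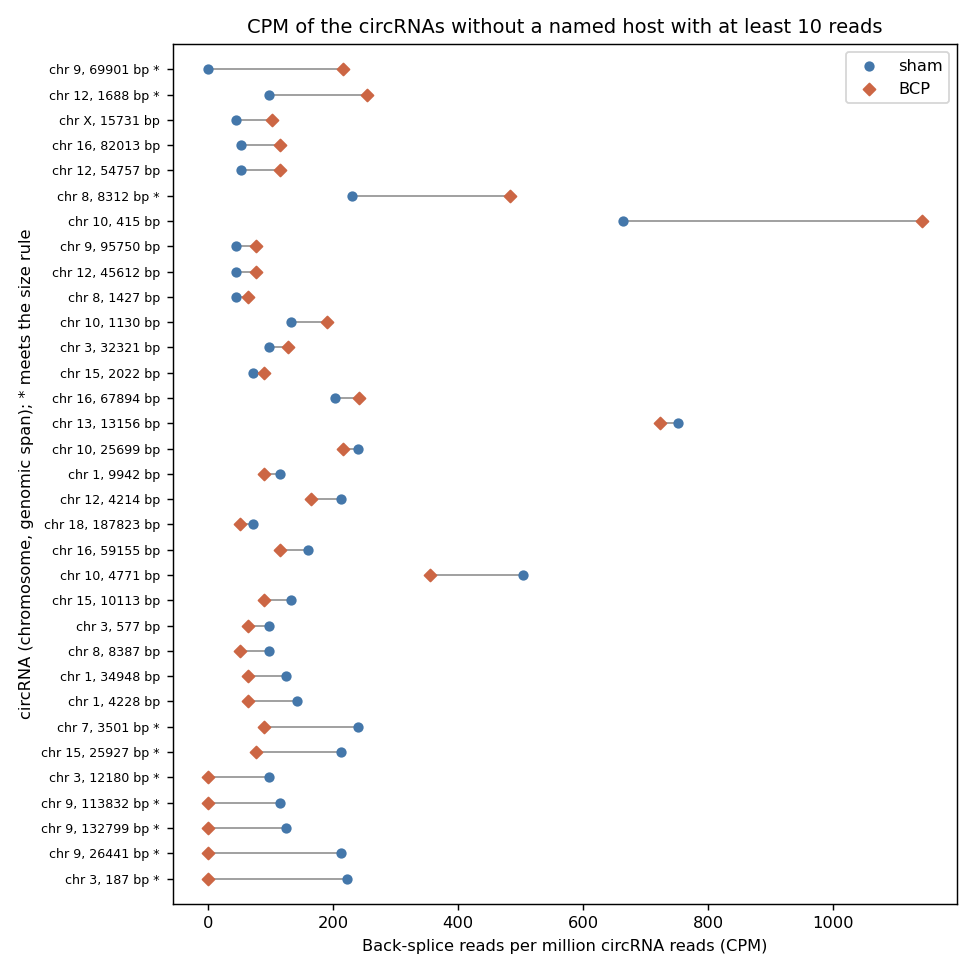
CPM in sham (circles) and BCP (diamonds) of the 33 circRNAs without a named host that had at least 10 reads, labelled by chromosome and span and ordered by log2 ratio, with an asterisk for those that met the size rule. BCP lies above sham in 14 of the 33, and values run from 0 to 1142 CPM.

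The sham and BCP libraries were compared circRNA by circRNA where both libraries together gave at least 10 reads. The size rule asked for a ratio of at least 2-fold and an interval that excluded 1. Of the 107, 33 had enough reads (30.8%, 22.3 to 40.5). Of the 33, 3 were higher in BCP (9.09%), where the rule called 7.82% of all 3502 circRNAs with enough reads. On the other side 7 were lower (21.2%, 8.98 to 38.9), where it called 7.34% of all. The share higher was near that of all circRNAs, and the share lower rests on few circRNAs, of which 3 lie in a single stretch of chromosome 9. Among the 1191 kept apart 13.3% of those tested were lower and 9.12% higher, and with a gene name 6.50% and 7.66%. The median log2 ratio of the 33 was -0.33, and 0.02 over all circRNAs tested. With counts of 0 set to 3 reads the medians were -0.36 and 0.01. The 27 with reads in both libraries had a median of -0.05, against 0.05 over all such circRNAs.

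**Figure D4:**
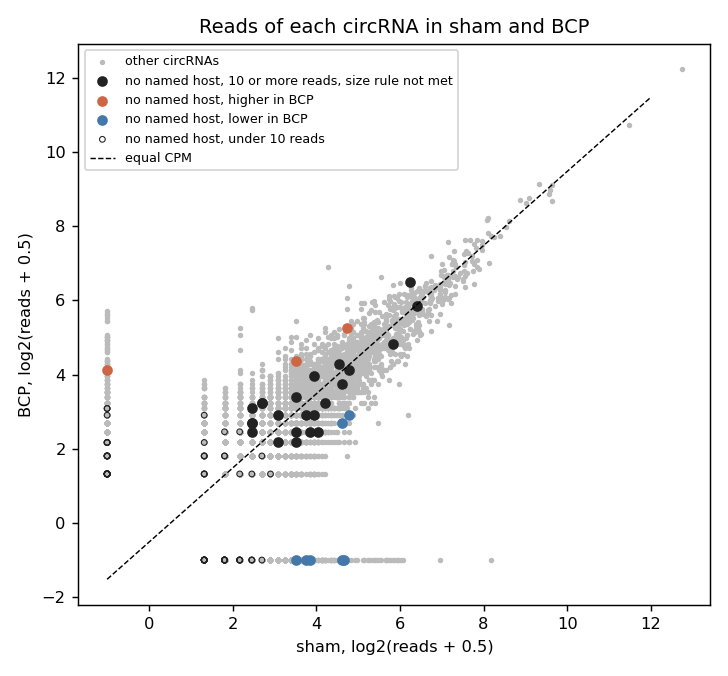
Reads of every circRNA in sham (x axis) and BCP (y axis) as log2(reads + 0.5), with those without a named host in colour or black and the rest in grey, and a dashed line of equal CPM. The 3 called higher lie above the line and the 7 called lower below it, 5 of these on the row of 0 reads in BCP.

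Of the 3 that were higher in BCP, 1 was listed at 0 in sham. It lay on chromosome 9 (12351210 to 12421110), spanned 69901 bp and had 17 reads in BCP (216 CPM). This was 8.12-fold higher with sham set to a floor of 3 reads, and the interval of its ratio began at 5.92. A 1688 bp circRNA of chromosome 12 (589609 to 591296) had 11 reads in sham (97.3 CPM) and 20 in BCP (254 CPM), 2.61-fold higher (1.19 to 6.02). The last of them, on chromosome 8 (131890854 to 131899165), had 26 reads (230.0 CPM) and 38 reads (482 CPM), 2.10-fold higher (1.24 to 3.59). That last call was lost under both median-of-ratios and TMM scaling, where the log2 ratio of 1.06 became 0.95 and 0.94. The other 9 of the 10 calls were made under both scalings as well.

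Of the 7 that were lower, 5 were listed at 0 in BCP, as were 174 of the 257 lower circRNAs overall. Folds are given with BCP set to a floor of 3 reads, and they leave out counting error. The upper limit of the interval of the ratio is therefore given beside each. The first, of 187 bp on chromosome 3 (12700508 to 12700694), had 25 reads in sham (221 CPM), 5.81-fold lower in BCP (ratio up to 0.228). Another on chromosome 3 (12493367 to 12505546) had 11 reads, 2.56-fold lower (up to 0.571). The other 3 were on chromosome 9. The one with most reads (8604049 to 8630489) had 24 in sham, 5.58-fold lower (up to 0.238). Those of 132799 bp (8289180 to 8421978) and 113832 bp (8362617 to 8476448) had 14 and 13 reads. They were 3.25-fold and 3.02-fold lower (up to 0.432 and 0.470). A read count of 0 in the shallower library does not show absence, since the smallest count listed was 2.

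Reads in both libraries were found for the other 2. On chromosome 7 (140929988 to 140933488) a 3501 bp circRNA had 27 reads in sham (239 CPM) and 7 in BCP (88.8 CPM), 2.69-fold lower (1.14 to 7.32). It carried U6 and U12, the latter an RNA of the minor spliceosome, and lay between circRNAs of the potassium channel gene Kcnh3, 74.1 kb before, and Fmnl3, 55.7 kb after. On chromosome 15 (110020800 to 110046726) a 25927 bp circRNA had 24 and 6 reads, 212 and 76.1 CPM, 2.79-fold lower (1.11 to 8.34). Both intervals reach close to 1. Another 4 of the 33 had a log2 ratio of at least 1 in size with an interval that held 1, such as a circRNA with an empty field on chromosome 12 (53627 to 108383; 6 and 9 reads, ratio 2.15, 0.684 to 7.34).

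Listing in a single library was common. Of the 107, 43 had reads in both libraries (40.2%, 30.8 to 50.1), 35 in sham alone and 29 in BCP alone. As shares of the 107, 32.7% (23.95 to 42.5) were in sham alone and 27.1% (19.0 to 36.6) in BCP alone, against 36.4% and 22.4% of all circRNAs. With a gene name 41.8% (40.8 to 42.7) were in both, 36.1% in sham alone and 22.1% in BCP alone. Those in sham alone had a median of 3 reads and at most 25, and 29 of 35 had at most 5. Those in BCP alone had a median of 2 and at most 17, and 25 of 29 had at most 5. They held 22.9% of the sham reads of the 107 (20.0 to 26.0) and 18.2% of the BCP reads (15.1 to 21.6). For circRNAs with a gene name these shares were 15.5% (15.2 to 15.7) and 12.2% (11.9 to 12.4), and for the 1191 kept apart 19.5% (18.8 to 20.2) and 13.8% (13.04 to 14.6). The median span was 18633 bp for those in sham alone, 8754 bp for those in BCP alone and 8387 bp for those in both. With a gene name it was 10802, 8132 and 8896 bp, in the same order.

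Many of these circRNAs came in groups. Of the 107, 51 shared a start or an end with another of them, and 59 (55.1%, 45.2 to 64.8) overlapped another by at least 1 bp. They formed 21 clusters of several circRNAs, and 48 stood alone. A start or end was shared with any circRNA of the table by 50.5% (40.6 to 60.3), and by 60.0% (59.0 to 60.9) of circRNAs with a gene name. Shared sites were thus no more frequent here. Overlap shares of the other classes are not given, so overlap is not shown to be particular to these circRNAs. A shared site is the pattern left when 1 splice site is joined to several partners, and such circRNAs are not independent of each other.

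The largest cluster held 6 circRNAs over 219033 bp of chromosome 18 (85543217 to 85762249), which used 5 starts and 2 ends. It summed to 25 sham reads and 11 BCP reads, with a ratio of 0.631 (0.280 to 1.33). The longest, of 187823 bp, had 8 and 4 reads. A cluster of 5 on chromosome 16 (4222176 to 4351455) used 4 starts and 2 ends. It had 42 and 32 reads, a ratio of 1.09 (0.667 to 1.77), led by a circRNA of 67894 bp (4283562 to 4351455) with 23 and 19 reads. Another of this cluster, of 82013 bp (4269443 to 4351455), had 6 and 9 reads. On chromosome 10 (106673704 to 106699402) 3 circRNAs shared 1 end and had 42 and 40 reads. Within that cluster the one from 106673704 had 27 and 17 reads, and the one from 106698273 had 15 and 15. The one from 106693642 was listed at 0 in sham and had 8 in BCP. The interval of the summed ratio held 1 in each of these clusters (0.863 to 2.16 in the last).

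On chromosome 12, 2 starts (587083 and 589609) and 2 ends (591296 and 632694) were joined in all 4 ways. The circRNA from 587083 to 591296 had 24 reads in sham and 13 in BCP, which was 57.1% (41.0 to 72.3) and 33.3% (19.1 to 50.2) of the reads of the cluster. The circRNA from 589609 to 591296 had 11 and 20, or 26.2% (13.9 to 42.0) and 51.3% (34.8 to 67.6). The first was thus the larger in sham and the second in BCP, with intervals that overlap. The pair that ended at 632694 had 5 and 6 reads and 2 and 0 reads. The cluster as a whole had 42 and 39 reads, a ratio of 1.33 (0.839 to 2.11).

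Of the 9 clusters with 3 or more circRNAs, only that of chromosome 9 (8281553 to 8476448) had a summed ratio whose interval excluded 1. Summed over its 3 circRNAs, the sham library held 32 reads and the BCP library 6, a 3.72-fold lower level in BCP with an interval of 1.53 to 10.9. All 6 BCP reads came from the circRNA from 8281553 to 8377302, which had 5 in sham. With the circRNA of 8604049 to 8630489 added, the 4 had 56 and 6 reads over 348937 bp, 6.51-fold lower (2.81 to 18.5). The only other circRNA inside that stretch was named LOC100360856, with 8 sham reads and a BCP count of 0. These sums were made after the values had been seen, and the stretch was chosen because its circRNAs were lower. Among clusters of 2 circRNAs, the summed ratios whose interval excluded 1 were all higher in BCP. On chromosome 8 (131890854 to 131899240) such a pair had 37 and 42 reads, a ratio of 1.63 (1.02 to 2.60). One on chromosome 9 (12211454 to 12421110) had 5 and 17 reads, a ratio of 4.87 (1.73 to 16.9). One on chromosome 6 (145431315 to 145451840) had 0 and 12 reads, with an interval from 3.98 upward.

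**Figure D5:**
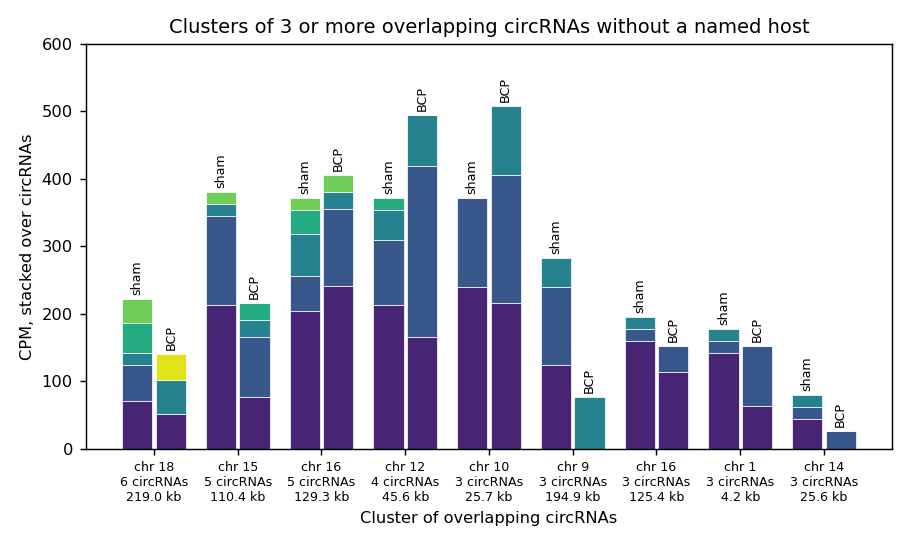
CPM in sham and BCP of the 9 clusters of 3 or more overlapping circRNAs without a named host, stacked by circRNA, with the chromosome, the number of circRNAs and the length covered below. The chromosome 9 cluster has 32 sham and 6 BCP reads, and in the chromosome 12 cluster (42 and 39 reads) the circRNA with most reads is not the same one in the 2 libraries.

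Some places without a host name also held circRNAs with one. Of the 107, 18 (16.8%, 10.3 to 25.3) overlapped a circRNA with a gene name, and 12 (11.2%, 5.93 to 18.8) shared an exact start or end with one. The most abundant of these was the chromosome 8 circRNA that was higher in BCP. Its start, 131890854, was also that of 2 circRNAs named Zfp445, a zinc finger gene, which ended at 131892538 (4 and 0 reads) and 131893013 (3 and 5 reads). A second circRNA without a host name from the same start ended at 131899240, with 11 and 4 reads, a ratio of 0.521 (0.121 to 1.76). Of the reads of this pair, the shorter took 70.3% in sham (53.0 to 84.1) and 90.5% in BCP (77.4 to 97.3).

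On chromosome 15, 5 circRNAs without a host name (109943076 to 110053440) interleaved with 3 named Nalcn, the gene of a sodium leak channel that sets the resting excitability of neurons. The start at 110036614 was used by a Nalcn circRNA (4 and 2 reads) and by 2 without a name, of which the one ending at 110046726 had 15 and 7 reads. The start at 109943076 was used by a Nalcn circRNA (5 and 0 reads) and by 1 without a name (0 and 2 reads). The 5 without a name had 43 and 17 reads, a ratio of 0.567 (0.303 to 1.01), and the 3 with the name 13 and 2. On chromosome 3 a circRNA from 26024509 to 26056829 (11 and 10 reads) shared its start with one named Lrp1b, a lipoprotein receptor gene, which had 6 and 2 reads. The chromosome 9 circRNA of 132799 bp shared its end, 8421978, with the one named LOC100360856. On chromosome 12 the end at 632694 was also that of a circRNA of N4bp2l2 with 105 and 81 reads. In these places the host of the unnamed circRNA was not tested.

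At the short end of those with at least 10 reads, a circRNA of 577 bp on chromosome 3 (13146571 to 13147147) had 11 and 5 reads, a ratio of 0.652 (0.178 to 2.04). One of 1130 bp on chromosome 10 (106698273 to 106699402) had 15 and 15 reads, and one of 1427 bp on chromosome 8 (131711421 to 131712847) had 5 and 5. Among the 7 of at most 500 bp, the circRNA of 415 bp held 75 of the sham reads and the circRNA of 187 bp held 25.

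By family name, sums followed the circRNAs that carry it, and a circRNA counts under each of its names. Because the names ran over long stretches of chromosomes, these sums also group circRNAs by position. Carriers of U6 had 546 and 405 reads, a ratio of 1.06 (0.933 to 1.21), and carriers of SNORA17 had 310 and 200, a ratio of 0.925 (0.770 to 1.11). Carriers of U2 had 294 and 217 reads (1.06, 0.884 to 1.27) and carriers of U4 had 65 and 64 (1.41, 0.984 to 2.03). Carriers of U1, on 2 chromosomes, had 136 and 67 reads, a ratio of 0.706 (0.519 to 0.953). They include all 5 of the circRNAs on chromosomes 3 and 9 that were lower and listed at 0 in BCP. The proteins that act with small nucleolar and Cajal body RNAs form a separate group of genes. Of 12 such genes on a list, 4 were named on 10 circRNAs, though the one with Nhp2 named several other genes as well. Of these 10, 3 were tested, of which 0 were higher and 1 was lower in BCP. The rule called 7.82% and 7.34% of all circRNAs tested. The lower one, of the nucleolar protein gene Nop58, had 61 sham reads and a BCP count of 0.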

How the data were processed

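The authors deposited 1 table of circRNAs with back-splice read counts of each library, whole numbers of 0 or at least 2. Beside them are columns headed TPM, which the authors filled with CPM: they match each count per 1000000 reads of its column within 0.001, and write 0 as 0.001. Per the submitters' processing notes, CASAVA 1.8, BWA and build rn6 were used. The sources used here do not name the program that called circRNAs, its cut on reads or the annotation behind the name field, and the caller decides which junctions appear at all. RNase R and ribosomal RNA removal were done per the labels' protocols.

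Counts were scaled to column totals (Python 3.11.15, scipy 1.17.1). Ratios are of BCP over sham CPM with conditional exact binomial intervals, and log2 ratios use a pseudocount of 0.5 reads. Tested circRNAs had 10 or more reads in both libraries together. A single library per group allows no p-value. Counts of the size rule were made over the whole table. The rule was tried on simulated data first. Alternatives were scaling by DESeq2 1.42.0 and edgeR 4.0.16, other read minimums, ratios and pseudocounts, and subsets of the circRNAs.

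Named circRNAs are those with most reads, the largest ratios in each direction, and the shortest and longest with at least 10 reads. Those that share a site with a gene-named circRNA and the largest clusters are named as well. The 107 circRNAs, the lists and the rules were chosen with earlier results of these data known. Reading "n/a" as empty and the small RNA names outside the rule were settled after the table was seen, and sums over chromosome stretches and neighbours were chosen after their values were seen.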

Additional observations from a re-analysis of the deposited data

How the results depend on the processing

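Every comparison rests on 1 library per group, so the spread between animals is unknown. Most circRNAs without a named host had too few reads to be tested, and since no count of 1 was listed, a 0 does not show absence. Log2 ratios shifted by -0.10 under median-of-ratios scaling and by -0.12 under TMM. With an empty field alone, 0 were higher, 0 were lower, the summed ratio was 1.30 and the median log2 ratio was 1.11, from only 2 tested circRNAs. A read minimum of 5 gave 6 higher. A read minimum of 20 gave 4 lower, of 18 with that many reads, and reads in both libraries gave 2 lower, of 27. Shares over all circRNAs at these settings are not given, so these counts have no background. By construction, these tests took in more or fewer circRNAs. All circRNAs with no gene name, an alternative chosen after seeing the data, gave 36 higher and 55 lower. This set joined the 33 tested here with 362 tested of the 1191 kept apart. The rule called 7.82% higher and 7.34% lower among all 3502 circRNAs tested. With at least 10 reads, 18.2% (6.98 to 35.5) were listed in one library only, against 59.8% of all 107. Reads in both libraries were found for 27 of the 33 tested, and for 3244 of all 3502 circRNAs tested. No paired analysis was possible because each group has 1 library.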

Other observations

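These sums were chosen after their values were seen and are values only. On chromosome 6, 2 circRNAs without a named host shared the start 145431315. They ended at 145439120 (0 and 8 reads) and 145451840 (0 and 4 reads). Their sum of 12 BCP reads was 5.74-fold higher with sham set to a floor of 3 reads for the pair. The interval of their summed ratio began at 3.98. All 4 such circRNAs of chromosome 17 were listed in sham alone, with 2 to 4 reads each and 12 in all, while 36.4% of all circRNAs were listed in sham alone. On chromosome 9 the circRNA higher in BCP overlapped another (12211454 to 12360769) with 5 sham reads and a BCP count of 0. The pair had 5 and 17 reads, a ratio of 4.87 (1.73 to 16.9). Carriers of U7 among the circRNAs without a named host had 25 and 44 reads, a ratio of 2.52 (1.51 to 4.30), and 17 of these BCP reads came from that single circRNA.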
